A study of Homo sapiens with 10 samples.

Results

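The alternate isoforms of the clustered protocadherins (PCDHs) are 50 genes on chromosome 5, found by symbol in both count tables. They comprise 14 alpha, 17 beta and 19 gamma genes, 5 of them pseudogenes, of 24050 genes listed in either table. The C-type genes of the same clusters (PCDHAC1, PCDHAC2, PCDHGC3, PCDHGC4 and PCDHGC5) are not among them. Of 55 matching symbols in the annotation, PCDHB1 was listed for HEK293T cells alone, at 0 counts, and PCDHB16, PCDHGB5 and PCDHGB9P, with a second PCDHB18P entry, were not analysed here.

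Clustered PCDHs are cadherin-like adhesion molecules that bind the same isoform on a neighbouring cell, and neurons use the combination they express as a surface label. Each alpha and gamma isoform comes from its own large variable exon, which carries its own promoter and is spliced to constant exons shared by the cluster. Beta genes consist of the variable exon alone. Alternate isoforms are usually silent in other tissues, and a neuron turns on only some of them, through CTCF and cohesin bridging a promoter to distant enhancers, against DNA methylation and H3K9me3. C-type isoforms follow other rules and are expressed more uniformly. Alpha proteins generally reach the cell surface in complex with beta or gamma proteins.

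RNA-seq was performed on wild-type (WT) cells and on cells carrying a homozygous CRISPR-Cas9 knockout (KO) of ZNF274, a KRAB zinc finger protein that recruits TRIM28 and SETDB1. HEK293T cells, a human embryonic kidney line, gave 3 WT libraries (15, 16 and 17) and 3 KO libraries (18, 19 and 20). Neural progenitor cells (NPCs) differentiated in culture from H1 human embryonic stem cells gave 2 WT libraries (3 and 5) and 2 KO libraries (1 and 2). According to the labels, replicates come from independent clones, and no label gives the clone of a library, so a difference between libraries may be one between clones. The HEK293T libraries summed to between 21421013 and 32285876 counts, and those of NPCs to between 18621266 and 23035490. ZNF274 had 423 to 496 counts in each WT library and 0 in each KO library. Levels are CPM, counts scaled to library size with TMM factors, and 3 counts in a library, 0.0921 to 0.154 CPM, were taken as the floor. A gene was called higher or lower at an adjusted p below 0.05 in edgeR's quasi-likelihood test and a fold change (FC) above 2. Alpha and gamma transcripts share constant exons, and of the 75-base stretches of a member's own exons, up to 26.3% in alpha, 36.0% in beta (PCDHB8) and 17.3% in gamma genes recur in the hg19 region from the first to the last member, so near-identical copies may share or lose reads.

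The promoters of these genes share short words, which are shown because each cluster has its own and the members are described by cluster. RefSeq promoter sequences (GRCh38.p14, 250 bases before to 50 after the annotated start) matched 40 members, 11 alpha, 12 beta and 17 gamma. A search for the word of 9 letters found in most promoters of each cluster, on the sense strand, returned GATGTCGCT in 9 of 11 alpha, GGTGGCGCT in 12 of 12 beta and GCGCCGCTG in 9 of 17 gamma promoters. Counting both strands, these words occur in 0.103%, 0.524% and 1.25% of 27305 promoters of the same length, and none of them occurs in a promoter of another PCDH cluster. All contain CGCT, the core of the element that CTCF is known to bind here, but that core alone, on either strand, is in 69.4% of all promoters. The words were picked from these promoters, so their frequency there is a description. In the windows below, each 30 bases either side of the word, capitals mark the word. They belong to members that the results turn on.
PCDHA1, chr5:140786067-140786135, plus strand: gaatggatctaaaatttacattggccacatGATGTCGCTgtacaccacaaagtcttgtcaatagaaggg
PCDHA4, chr5:140806960-140807028, plus strand: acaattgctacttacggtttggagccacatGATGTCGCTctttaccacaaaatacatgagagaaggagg
PCDHA10, chr5:140855822-140855890, plus strand: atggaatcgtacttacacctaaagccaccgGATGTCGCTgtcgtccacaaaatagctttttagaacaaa
PCDHB2, chr5:141094525-141094593, plus strand: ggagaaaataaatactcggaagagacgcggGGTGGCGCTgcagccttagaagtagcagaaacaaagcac
PCDHB5, chr5:141135160-141135228, plus strand: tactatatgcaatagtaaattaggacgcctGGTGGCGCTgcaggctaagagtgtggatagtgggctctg
PCDHB8, chr5:141177758-141177826, plus strand: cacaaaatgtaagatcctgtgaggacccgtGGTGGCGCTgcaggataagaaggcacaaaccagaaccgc
PCDHB12, chr5:141208624-141208692, plus strand: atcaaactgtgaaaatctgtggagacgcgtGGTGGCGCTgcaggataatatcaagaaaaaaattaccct
PCDHB13, chr5:141213846-141213914, plus strand: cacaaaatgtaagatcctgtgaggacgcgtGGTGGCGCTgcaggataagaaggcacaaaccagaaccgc
PCDHB15, chr5:141245295-141245363, plus strand: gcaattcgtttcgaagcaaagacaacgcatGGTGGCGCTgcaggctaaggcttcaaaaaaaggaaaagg
PCDHGB4, chr5:141387599-141387667, plus strand: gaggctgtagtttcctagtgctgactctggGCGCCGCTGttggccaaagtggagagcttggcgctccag
PCDHGA10, chr5:141412913-141412981, plus strand: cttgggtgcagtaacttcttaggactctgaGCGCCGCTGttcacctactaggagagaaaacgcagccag
PCDHGA11, chr5:141420954-141421022, plus strand: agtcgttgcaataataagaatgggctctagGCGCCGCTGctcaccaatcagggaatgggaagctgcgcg

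The windows of PCDHB8 and PCDHB13 were the same at 68 of 69 bases. The word was present in members that were called and in members that were not. It was in PCDHA4, PCDHB5, PCDHGA10 and PCDHGA11, which were called in neither cell type, and of the 8 gamma promoters without it, PCDHGA2, PCDHGA4 and PCDHGB2 were called higher in NPCs.

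In HEK293T cells, 6 beta genes and PCDHA1 were called higher in KO cells, and no gamma gene was. Of 35 tested members, 7 were called higher and 0 lower with edgeR, against 0.478% of all 19018 tested genes called higher. At an unadjusted p below 0.05 there were 27 higher and 0 lower. For counts at an unadjusted p, here and below, the share of all genes is not given. Every KO library lay above every WT library for 29 of the 35, against 7.16% of all tested genes. Their median log2 FC was 3.42, or 1.94 with the 19 members at the floor in 1 genotype set to their bound, beside 0.01 for all genes. The other 15 members had too few counts to test, and those at the floor in every WT library passed the filter mainly through their KO libraries, so the median and these counts describe the tested members alone. The WT libraries held 125 to 157 counts over all members and the KO libraries 425 to 1246. KO library 18 was the lowest of the KO libraries, with a summed level of 18.6 CPM against 38.3 and 36.4 CPM in libraries 19 and 20.

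Beta genes encode isoforms without a shared constant part. In HEK293T cells all 17 were tested and 6 were called higher, and in all 17 the KO libraries lay above the WT libraries. The summed beta level was 1.67, 1.03 and 1.12 CPM in the WT libraries and 11.0, 27.0 and 24.6 CPM in the KO libraries, a 16.4-fold ratio of means. PCDHB2 (hg19, 140474191 to 140478287) had 8, 0 and 1 counts in WT and 72, 114 and 109 in KO libraries (log2 FC 5.08, with a standard error, SE, of 0.689, adjusted p = 0.00588). The 3 KO libraries were close to each other, and the call on PCDHB2 held under all 13 alternatives.

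PCDHB12 (140588269 to 140592143) had 4, 1 and 8 WT counts and 30, 200 and 123 KO counts, a log2 FC of 4.74 (SE 0.693, adjusted p = 0.00929). Next to it, PCDHB13 (140593491 to 140598551) had 8, 3 and 3 against 25, 88 and 71 counts, with a log2 FC of 3.74 (SE 0.548, adjusted p = 0.00936). In both, KO library 18 was the lowest of the KO libraries, still above each WT library. The transcribed pseudogene PCDHB18P (140614123 to 140616490) had 2 counts in each WT library and 16, 79 and 56 in KO (adjusted p = 0.00577). PCDHB8, at 0, 3 and 3 against 14, 50 and 49 counts, passed with an adjusted p of 0.0337. PCDHB10 gave 1 WT count in all and 9, 46 and 13 KO counts, a ratio of 73.2 with a 95% counting interval of 12.7 to 2934 (adjusted p = 0.0351). Of 13 alternatives, PCDHB8 lost its call under 6, PCDHB10 under 5, PCDHB12 and PCDHB18P under 3 each and PCDHB13 under 2. With voom, the test the study used, PCDHB13 and PCDHB2 were the beta genes still called, beside PCDHA1. Without WT library 16, PCDHB2 was the 1 member still called, without WT library 15 or 17 there were 3 and 4, and without KO library 18 there were 11.

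The other 11 beta genes were not called. PCDHB15, the last of the cluster, had 16, 4 and 7 WT counts and 16, 108 and 68 KO counts (log2 FC 2.84, adjusted p = 0.125). Scaled to CPM, its lowest KO library stood at 0.699 and its highest WT library at 0.534. PCDHB14 had 4, 4 and 8 against 14, 40 and 40 counts (adjusted p = 0.0891). PCDHB3, PCDHB4, PCDHB17P and PCDHB19P had no count in WT and 3 to 22, 3 to 19, 2 to 13 and 1 to 6 counts in the KO libraries. Their KO means were at least 3.50-fold, 4.57-fold, 2.65-fold and 1.24-fold above the WT floor. PCDHB5 had the smallest log2 FC among the beta genes, 2.14, with 3, 8 and 0 against 19, 14 and 12 counts (adjusted p = 0.629).

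The alpha cluster remained close to 0 in HEK293T cells apart from its first gene. PCDHA1 (140165721 to 140391932) gave 1 count over the 3 WT libraries, and 16, 55 and 46 in KO, a ratio of 126 with a counting interval of 22.2 to 5018 (adjusted p = 0.00419). It took 76.2%, 69.6% and 83.6% of the alpha level in the KO libraries. PCDHA3 was the other tested alpha gene, with 0 WT counts and 3, 12 and 1 KO counts, at least 1.76-fold higher and not called (adjusted p = 0.480). The other 12 had at most 4 counts in any HEK293T library, and PCDHA5, PCDHA6, PCDHA7, PCDHA9 and PCDHA13 had none in all 6. At this depth a change in them was not detectable.

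Gamma genes differed in their starting level. PCDHGA11 (140800614 to 140892542) was the one member at 1 CPM or more in WT HEK293T cells, with 70, 75 and 57 counts, 44.6% to 53.2% of the counts of all 50 members. It had 47, 111 and 119 counts in KO libraries (log2 FC 0.54, adjusted p = 0.791), and the genotypes overlapped. With edgeR 0 of the 16 tested gamma genes were called and 8 had an unadjusted p below 0.05, all higher, while DESeq2 called 1 and voom 0. PCDHGA1, the first of the cluster, had 4, 0 and 0 against 13, 40 and 17 counts (log2 FC 4.06, adjusted p = 0.128). PCDHGB1 had 6, 14 and 4 against 15, 26 and 32 counts (log2 FC 1.69, adjusted p = 0.502). The pseudogene PCDHGB8P had 1, 3 and 5 against 3, 3 and 1 counts and was the one tested member with a log2 FC below 0. The summed gamma level was 3.05 to 3.75 CPM in WT and 6.64 to 9.79 CPM in KO libraries, a 2.44-fold ratio of means.

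**Figure D1:**
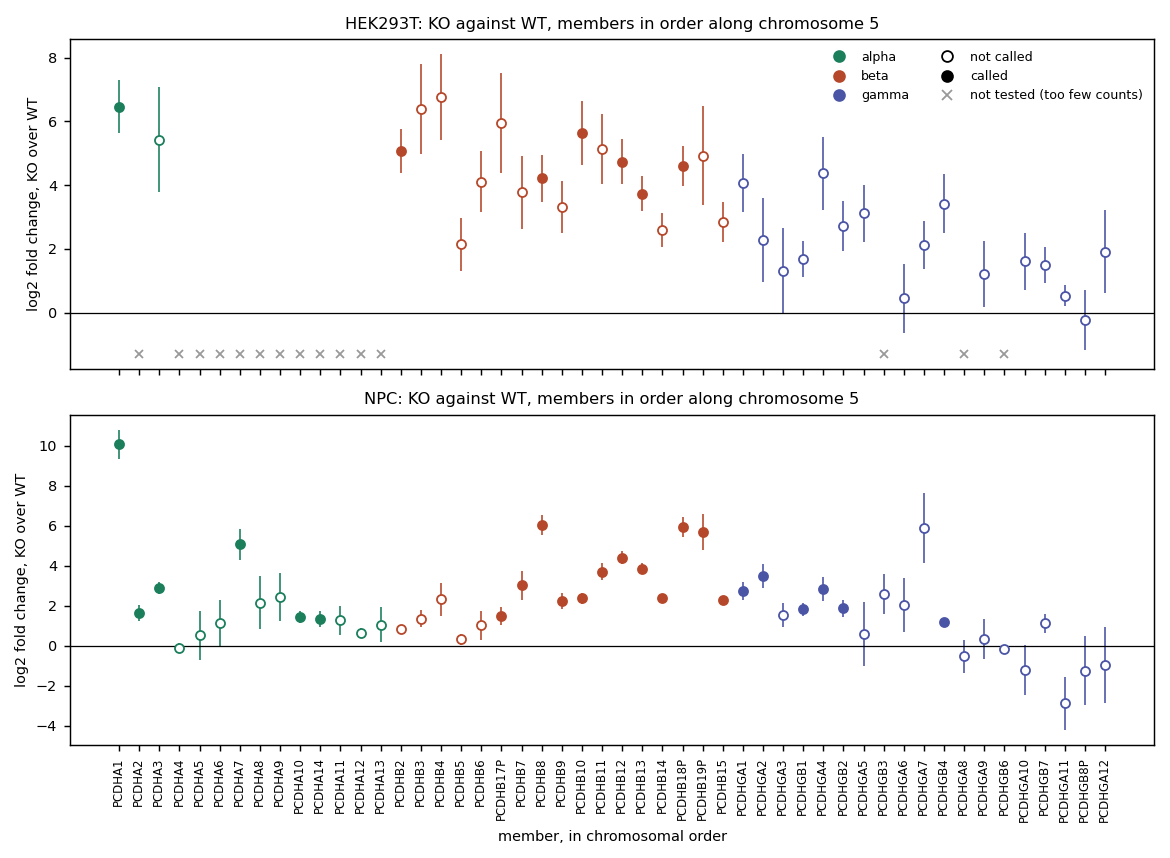
Log2 fold change of KO over WT (vertical axis, bars are standard errors) for each member in its order along chromosome 5 (horizontal axis), in HEK293T cells (3 libraries each, top) and NPCs (2 libraries each, bottom). Filled points were called, open points were not, and crosses mark members with too few counts to test. In HEK293T cells 7 members are filled and in NPCs 24, and the lowest values in both are gamma genes. Fitted values of members without a WT count depend on the prior count.

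NPCs expressed these genes at far higher levels than HEK293T cells before any loss of ZNF274. Of the 50 members, 47 had a higher mean level in WT NPCs, and the sum over members was 268 ± 2.38 CPM (SD, n = 2) against 4.78 ± 0.507 CPM (SD, n = 3), each scaled within its own table. In WT NPCs, 21 and 20 members reached 1 CPM, and in KO NPCs 35 in each library. Per kilobase of its own exon, PCDHB5 was highest, at 25.0 ± 0.0798 CPM per kb (SD, n = 2), followed by PCDHGB6 at 9.93 ± 2.38, PCDHB2 at 7.03 ± 0.184 and PCDHGB4 at 6.94 ± 0.464. PCDHB2 and PCDHGB4 did not differ beyond their spread, and both lay under the PCDHGB6 values. PCDHGB7 (6.53 ± 5.11) and PCDHGA10 (5.99 ± 8.24) varied too widely between libraries to be placed. Among alpha genes PCDHA4 had the highest mean, 3.48 ± 0.428 CPM per kb, but PCDHA6 (2.49 ± 3.47) lay above it in WT library 3, and the order is not settled.

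In KO NPCs, 24 of the 50 members were called higher and 0 lower with edgeR, against 8.45% of 20577 tested genes called higher and 8.36% called lower. Another 7 had an unadjusted p below 0.05, all higher, and none was lower at that level, for which the share of all genes is not given. By cluster the calls were 6 of 14 alpha, 12 of 17 beta and 6 of 19 gamma genes. KO libraries lay above WT libraries for 39 members and below for 1, PCDHGA8 (7 and 7 against 5 and 5 counts). For all genes tested, 33.3% had both KO libraries above both WT libraries, and that share is high with 2 libraries each. The median log2 FC of the members was 1.73, or 1.45 with the 9 at the floor in 1 genotype at their bound, beside -0.02 for all genes. The ratio of mean summed levels was 2.47 for alpha, 2.37 for beta and 1.47 for gamma. Without KO library 1 the calls came to 14, and without WT library 3 to 28, where a lone library was taken to vary like the rest.

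The beta genes held the largest number of calls. PCDHB8 had 4 and 2 WT counts and 258 and 166 KO counts, a log2 FC of 6.04 (SE 0.506, adjusted p = 0.000317). PCDHB18P had 4 and 1 against 152 and 178 counts (log2 FC 5.92, adjusted p = 0.00033). Its neighbour PCDHB19P had 1 WT count in all and 32 and 34 in KO, a ratio of 63.2 with a counting interval of 11.0 to 2535 (adjusted p = 0.00396). All 3 had at most 4 counts in a WT library, and both KO libraries lay far above WT for each.

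PCDHB12 had 16 and 16 WT counts and 400 and 307 KO counts (log2 FC 4.40, SE 0.315, adjusted p = 0.000181). PCDHB13 had 22 and 27 against 352 and 394 counts (log2 FC 3.85, adjusted p = 0.000157), and PCDHB11 had 6 and 8 against 99 and 94 (log2 FC 3.70, adjusted p = 0.00111). In WT these 3 neighbours lay between 0.284 and 1.38 CPM. PCDHB9, PCDHB10 and PCDHB14 had log2 FC values of 2.24, 2.36 and 2.36 and PCDHB7 of 3.02. PCDHB15 started higher, at 406 and 268 counts, and reached 1717 and 1669, a log2 FC of 2.28 (SE 0.187, adjusted p = 0.000298). It became the second highest member per kilobase, at 20.1 ± 1.71 CPM per kb (SD, n = 2).

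Of the first 6 beta genes in chromosomal order, PCDHB17P was called. PCDHB2 had 596 and 572 WT counts and 1058 and 1111 KO counts, a log2 FC of 0.83 (SE 0.127, adjusted p = 0.00346), below the fold threshold although the genotypes were clearly apart. PCDHB5, the most abundant member, had 1802 and 1659 against 1505 and 3036 counts (log2 FC 0.31, SE 0.255, adjusted p = 0.410), and the KO libraries lay on either side of WT. PCDHB3, PCDHB4 and PCDHB6 were not called, with 37 and 21 against 88 and 64 counts, 2 and 4 against 20 and 12, and 4 and 9 against 12 and 16. The pseudogene PCDHB17P, which follows PCDHB6, passed narrowly (42 and 20 against 105 and 72 counts, adjusted p = 0.0477), a call lost under 6 of 11 alternatives. Along the 17 beta genes, log2 FC correlated with place at Spearman's rho of 0.66 in NPCs (Pearson's r 0.63) and at -0.38 in HEK293T cells (r -0.37). The 2 rho values ranged from 0.58 to 0.75 and from -0.49 to -0.19 over the alternatives. The points share libraries and WT levels, so these are descriptions. In HEK293T cells 10 of the 17 lay at the floor in every WT library. Fitted values without a WT count depend on the prior count. PCDHB3 and PCDHB4 had fitted log2 FC values of 6.39 and 6.76 there, and bounds of 1.81 and 2.19. No trend is therefore read from the HEK293T rho.

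Among alpha genes, PCDHA1 was undetected in WT NPCs and reached 128 and 145 counts in KO, at least 43.5-fold higher (adjusted p = 0.00037). PCDHA7 had 6 and 0 against 111 and 106 counts (log2 FC 5.07, adjusted p = 0.00346), and PCDHA3 had 27 and 27 against 220 and 189 (log2 FC 2.86, adjusted p = 0.000786). PCDHA10, with 84 and 133 against 323 and 290 counts, rose with a log2 FC of 1.43 (adjusted p = 0.0128). PCDHA2 (log2 FC 1.63, adjusted p = 0.026) and the pseudogene PCDHA14 (log2 FC 1.34, adjusted p = 0.0414) passed near the threshold, and lost the call under 3 and 6 of 11 alternatives. PCDHA4, the highest in WT by its mean, had 168 and 185 against 166 and 177 counts, a log2 FC of -0.11 (SE 0.228). PCDHA5, PCDHA8, PCDHA9 and PCDHA13 had at most 16 counts in any NPC library.

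Among gamma genes, the last one called along the cluster was PCDHGB4, at place 11 of 19. PCDHGA1 had 16 and 12 against 116 and 76 counts (log2 FC 2.72, adjusted p = 0.00407), and PCDHGA2 had 6 and 2 against 52 and 43 (log2 FC 3.49, adjusted p = 0.00614). PCDHGB1, PCDHGA4 and PCDHGB2 were called with log2 FC values of 1.82, 2.83 and 1.86. PCDHGB4, an abundant member, had 361 and 367 against 892 and 803 counts (log2 FC 1.16, SE 0.164, adjusted p = 0.00247). After it, no gamma gene was called, and PCDHGB6 had 453 and 590 against 441 and 520 counts (log2 FC -0.19, SE 0.198). PCDHGA7 was undetected in WT and had 7 and 8 KO counts, at least 2.39-fold higher and just outside the threshold (adjusted p = 0.0509). Along the 19 gamma genes, place and log2 FC had a Spearman's rho of -0.79 in NPCs (Pearson's r -0.69) and -0.52 over 16 genes in HEK293T cells (r -0.56). In NPCs rho was -0.53 without WT library 3 and -0.55 without WT library 5. In HEK293T cells it was -0.34 without WT library 17, and -1.0 over the 4 gamma genes that filterByExpr kept. Of the 16 HEK293T gamma genes, 8 lay at the floor in every WT library. They were tested mainly because of their KO counts, so no trend is read from the HEK293T rho.

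**Figure D2:**
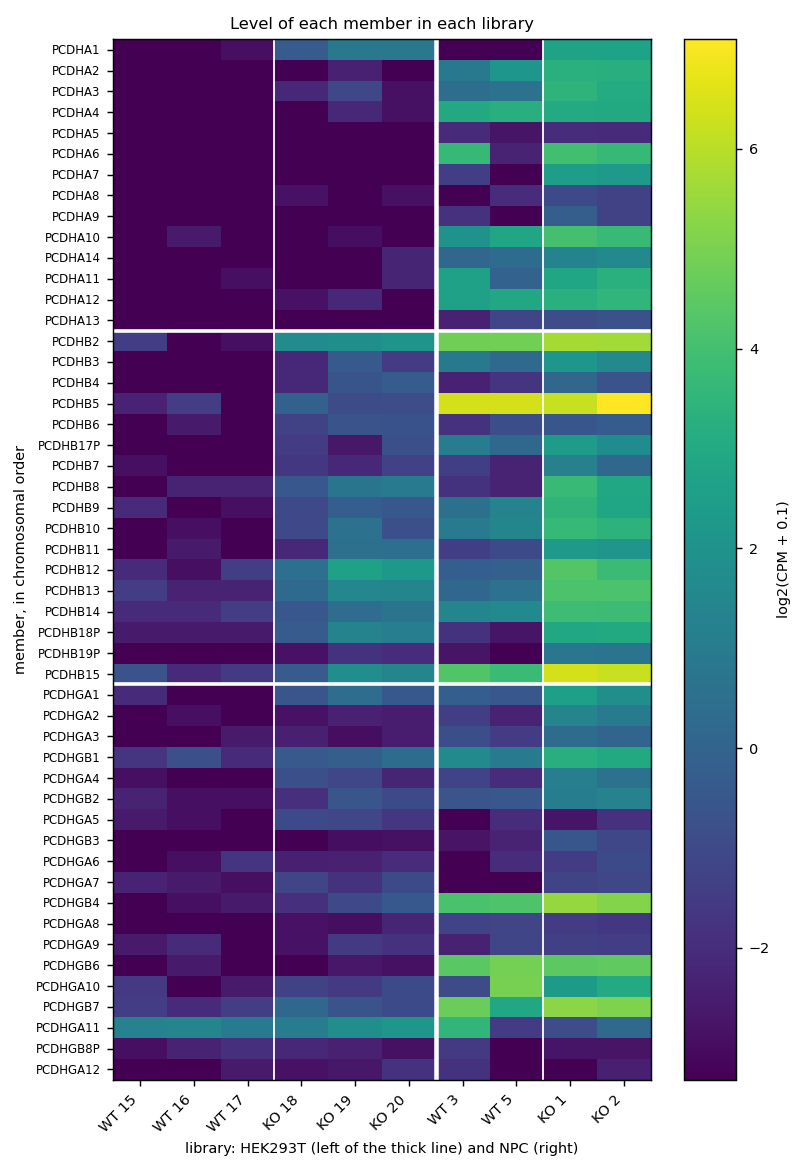
Level of each member (rows, in chromosomal order, white lines between the alpha, beta and gamma clusters) in each library (columns), as log2 of CPM plus 0.1. In HEK293T cells the beta rows brighten from WT to KO, while PCDHGA11 is bright in all 6 libraries. In NPCs, PCDHA6, PCDHGA10 and PCDHGA11 differ between the WT libraries.

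The effective number of members, the exponential of the Shannon entropy of their shares, summarises how evenly a library spreads its PCDH RNA. It was 12.0 and 10.9 in WT NPC libraries and 21.2 and 17.8 in KO NPC libraries. In HEK293T cells it was 8.81, 7.28 and 8.79 in WT and 22.0, 20.5 and 20.6 in KO, although the WT values rest on few counts. PCDHB5 alone took 31.6% and 31.9% of the member level in WT NPC libraries. In KO NPC library 1 the leading member was PCDHB15, with 15.3%, and in library 2 it was PCDHB5, with 24.2%. Within beta the effective number in NPCs went from 3.67 and 3.64 to 8.77 and 6.84, within alpha from 6.64 and 5.79 to 9.77 and 9.92, and within gamma from 5.32 and 4.61 to 6.07 and 6.41. In each cluster the WT and KO values of NPCs did not overlap, and no test was made of them. In HEK293T cells the alpha values overlapped, with 2.0 in WT library 17 and 1.98 in KO library 20.

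**Figure D3:**
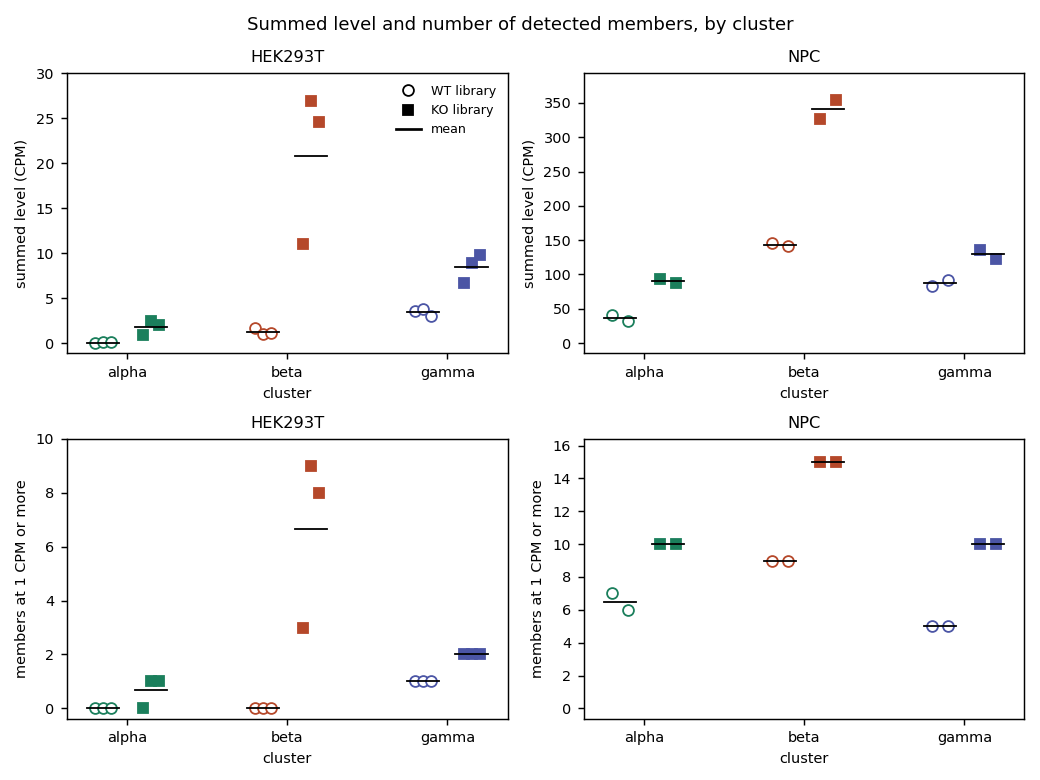
Summed level of each cluster in CPM (top) and number of members at 1 CPM or more (bottom), in HEK293T cells (left) and NPCs (right). Open circles are WT libraries, filled squares KO libraries, and lines their means. In each panel of summed levels, every KO library lies above every WT library, and the lowest HEK293T KO point is library 18.

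The WT NPC libraries disagreed on single isoforms. PCDHA6 had 262 counts in WT library 3 and 2 in library 5, a 97.1-fold difference after scaling. PCDHGA10 went the other way, with 9 and 606 counts (69.0-fold). PCDHGA11 had 242 and 5 counts (40.8-fold) and PCDHA11 128 and 17 (6.79-fold). These 4 of 26 members with at least 20 counts over the WT pair differed over 4-fold, as did 2.14% of all 15261 such genes. In the KO pair 0 of 41 did, and 0.602% of 15113 genes, while 3 members differed over 2-fold.

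In the KO libraries PCDHA6 had 312 and 278 counts, PCDHA11 143 and 215, PCDHGA10 103 and 182, and PCDHGA11 9 and 25. After scaling, both KO libraries lay above both WT libraries for PCDHA6 and PCDHA11, and between them for PCDHGA10 and PCDHGA11. None of these 4 was called, and for PCDHGA10 and PCDHGA11 the direction depended on the WT library that was used. For PCDHGA10 the log2 FC was -1.24, -2.22 without WT library 3 and 3.94 without WT library 5, and both of the latter passed the threshold. PCDHA6 and PCDHA11 were called higher without WT library 3 (log2 FC 7.01 and 3.26), against 0.16 and 0.46 without WT library 5 and 1.15 and 1.27 with both, and PCDHGA11 lower without WT library 5 (log2 FC -3.85), with a value of 1.60, not called, without WT library 3. PCDHGB7, with 557 and 148 against 797 and 758 counts, was not called (adjusted p = 0.132).

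**Figure D4:**
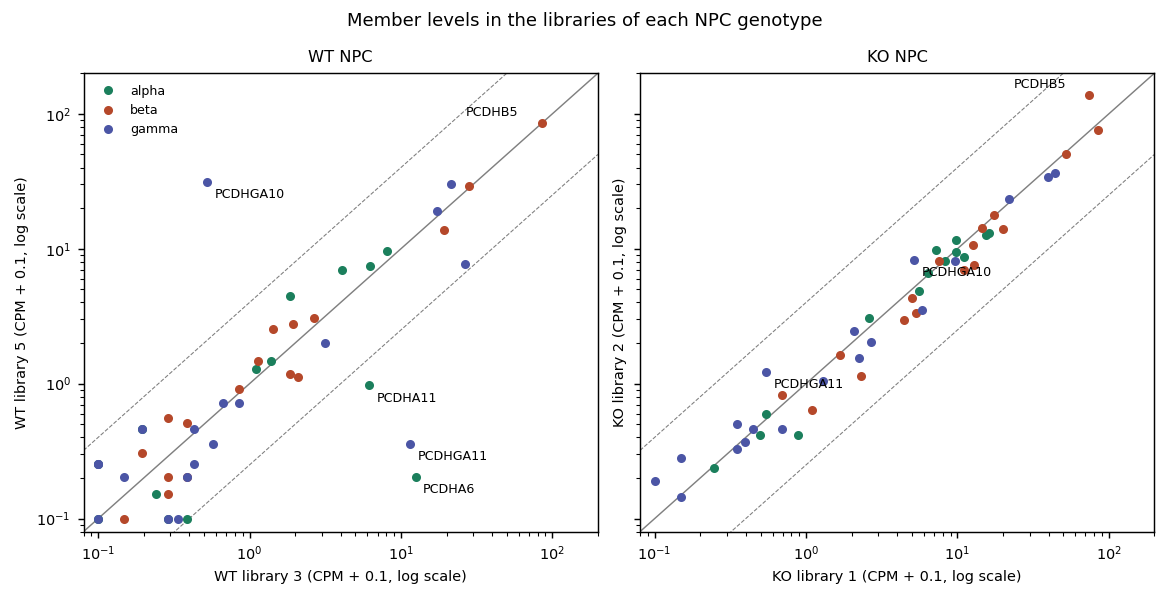
Level of each member in the WT NPC libraries (left, library 3 against library 5) and in the KO NPC libraries (right, library 1 against library 2), as CPM plus 0.1 on log axes. The solid line marks equal levels and the dashed lines a 4-fold difference. Of members with 20 or more counts over a pair, 4 lie outside the dashed lines in WT (PCDHA6, PCDHA11, PCDHGA10 and PCDHGA11) and 0 in KO.

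Members were also grouped by WT level. In NPCs all 50 were tested, and 8.45% of all tested genes, at any WT level, were called higher. There, 2 of 8 members at the floor in both WT libraries were called higher. So were 10 of 19 below 1 CPM and 12 of 23 at 1 CPM or more. The median log2 FC values of these groups, in that order, were 2.37, 2.43 and 1.34. In HEK293T cells 35 members lay at the floor in every WT library. Of these, 15 had too few counts to test and 4 were called, beside 3 of 14 below 1 CPM and 0 of 1 above it. Among all genes tested in HEK293T cells 0.478% were called higher. WT level and log2 FC had a Spearman's rho of -0.43 over 50 members in NPCs, and none is given for HEK293T cells, where members at the floor passed the count filter mainly through their KO libraries. The same WT counts enter both axes, which by itself gives a negative value. Against the WT level in HEK293T cells, the rho of the NPC log2 FC was -0.05.

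The cell types overlapped in their calls. Of the 7 members called in HEK293T cells, 6 were also called in NPCs (PCDHA1, PCDHB8, PCDHB10, PCDHB12, PCDHB13 and PCDHB18P), which are 6 of the 24 called there. Of all genes tested in NPCs 8.45% were called higher, and the overlap of calls over all genes is not given here. Of 35 members tested in both, 31 had a log2 FC above 0 in both. In HEK293T cells 20 of the 35 lay at the floor in every WT library and passed the count filter mainly through KO libraries. That filter favoured a log2 FC above 0 for them, so the 31 is no measure of agreement. The exception among the 7 was PCDHB2, and it was the 1 member whose KO effect differed between cell types (NPC minus HEK293T -4.22 on the log2 scale, SE 0.63, adjusted p = 0.000957, edgeR interaction over 10 libraries). That difference passed under all 15 alternatives, while DESeq2 called 6 members and other settings 1 to 5. For all 19255 genes, 7.34% had a lower and 7.74% a higher effect in NPCs. For PCDHB13 the difference was 0.14 (SE 0.925), for PCDHB12 -0.32 (SE 0.852), and for PCDHB5 -1.78 (SE 0.753, adjusted p = 0.136). With so few HEK293T counts, a failure to pass does not show that the effects are alike. Levels in KO HEK293T and KO NPC libraries had a Spearman's rho of 0.74 over the 17 beta genes (Pearson's r 0.30). Their WT levels had a rho of 0.47 (r 0.31). Neither was divided by exon length, which the cell types share. The log2 FC values of these genes had a rho of 0.02 (r 0.058). Over 16 gamma genes the log2 FC values had a rho of 0.54 (r 0.47), and over all 35 members one of 0.51 (r 0.53). At the floor in every WT HEK293T library were 8 of these 16 and 20 of the 35. Such members were tested mainly because of their KO counts, so neither rho measures agreement between the cell types. All of these correlations are descriptions across genes that share libraries.

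The C-type genes of the clusters moved in different directions. PCDHAC1 (13 and 13 against 60 and 85 counts) and PCDHAC2 (18 and 17 against 141 and 143) rose in KO NPCs, with log2 FC values of 2.40 and 2.95 (adjusted p = 0.00534 and 0.000925). PCDHGC4, an isoform known for its part in neuronal survival, had 206 and 145 against 29 and 25 counts there and was called lower, whereas in HEK293T cells it had 23, 19 and 12 against 43, 94 and 121 counts (adjusted p = 0.0376). PCDHGC3 rose in HEK293T cells (21, 9 and 9 against 79, 85 and 116 counts, log2 FC 2.97, adjusted p = 0.00743) and was not called in NPCs. PCDHGC5 was called in neither.

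Genes beside and between the clusters were compared over the same libraries. Of protein-coding genes within 500 kb or between the clusters, 0 of 26 tested were called in HEK293T cells. There 0.478% of all tested genes were called higher, and 2 of the 26 had an unadjusted p below 0.05, both higher. In NPCs, 3 of 29 were called higher, HBEGF, APBB3 and TAF7, and 1 lower, PCDH1, beside 8.45% and 8.36% of all genes, so the counts are near the share among all genes. TAF7, an intronless gene for a subunit of the general transcription factor TFIID, lies between the beta and gamma clusters. It stood at 71.5, 76.5 and 69.1 CPM in WT and 87.4, 158 and 157 CPM in KO HEK293T libraries (log2 FC 0.89, SE 0.209, adjusted p = 0.161). In NPCs it rose from 122 and 98.9 to 219 and 227 CPM (log2 FC 1.01, adjusted p = 0.00167).

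Known regulators of PCDH promoters were read from a list of 24 genes (CTCF, cohesin and its loaders, SETDB1, TRIM28, DNA methyltransferases, TET enzymes and others), 23 of them tested. In HEK293T cells none was called, and 1 had an unadjusted p below 0.05. TRIM28, the corepressor that ZNF274 recruits, stood at 1027, 813 and 992 CPM in WT and 313, 353 and 846 CPM in KO libraries (log2 FC -0.90, adjusted p = 0.537). In NPCs DNMT3B, a de novo DNA methyltransferase, fell from 68.9 and 82.0 to 24.3 and 15.8 CPM (log2 FC -1.91, adjusted p = 0.00106), and TET1, which oxidises methylcytosine, from 62.4 and 61.6 to 23.1 and 18.5 CPM (log2 FC -1.58, adjusted p = 0.000549). These 2 of 23 called lower are near the 8.36% of all genes called lower, and the median log2 FC of the list was -0.31 beside -0.02 for all genes. Of the 23, 19 had a log2 FC below 0 and 4 above. Both KO libraries lay below both WT libraries for 17 and above for 3, and the share of all genes lying below is not given. TRIM28 (log2 FC -0.61, adjusted p = 0.0062), SETDB1 (log2 FC -0.61, adjusted p = 0.00877) and the cohesin subunit SMC3 (log2 FC -0.67, adjusted p = 0.00315) stayed under the fold threshold there. CTCF had log2 FC values of -0.19 in HEK293T cells and -0.11 in NPCs and SMCHD1 of -0.14 and -0.17, none called. Of 13 tested partners and processing enzymes of PCDHs, none was called in HEK293T cells. In NPCs ADAM10, the protease that sheds PCDH ectodomains, rose (log2 FC 1.23, adjusted p = 0.000405), as did RET (log2 FC 3.23), and WASF1 of the WAVE complex fell (log2 FC -1.22). These are 2 and 1 of 13, beside 8.45% and 8.36% of all genes in NPCs, and the 0 of 13 in HEK293T cells stands beside 0.478% of genes called higher.

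Many markers of cell identity were called in KO NPCs, beside 8.45% of all genes called higher and 8.36% lower. Of 9 tested neural progenitor markers 7 were called lower (SOX1, SOX2, PAX6, FABP7, PROM1, MSI1 and OTX2), among which PAX6 differed least (1857 and 1533 against 518 and 928 counts) and FABP7 had a log2 FC of -6.69. Of 12 neuron markers 5 were called lower, from -1.06 for SYT1 to -3.68 for DCX, with ELAVL3, MAP2 and INA between them, and ELAVL4 was called higher (1 and 1 against 23 and 7 counts). Of 14 mesenchymal markers 8 were called higher (COL1A1, COL3A1, COL6A3, POSTN, TWIST1, TAGLN, FN1 and PDGFRB), from 1.81 for PDGFRB to 5.69 for COL6A3. Of 8 neural crest markers 5 were called higher (SOX10, SNAI2, ETS1, PAX3 and NGFR), from 2.38 for ETS1 to 6.72 for PAX3. Of 4 tested pluripotency markers LIN28A was called lower (log2 FC -5.62) and ZFP42 higher (log2 FC 3.17). The summed level of the neuron markers was 1108 to 1204 CPM in WT and 182 to 226 CPM in KO libraries, and of the mesenchymal markers 2842 to 3535 and 10221 to 11852 CPM. The neural progenitor sum, which NES dominates, was 2934 to 3957 CPM in WT and 3205 to 3264 CPM in KO. The neural crest sum was 69.0 to 102 and 516 to 571 CPM, and the pluripotency sum 139 to 161 and 65.1 to 70.4 CPM. Among defining markers, HES5 and NANOG were at 0 in KO NPCs and FOXD3 in WT NPCs, and DACH1, POU5F1, TDGF1, UTF1 and DNMT3L were not analysed in NPCs here. SOX1 was at 1 and 2 counts in KO against 154 and 989. The part of these shifts in the PCDH levels was not tested, and in bulk RNA fewer cells of a type and less RNA per cell cannot be told apart. In HEK293T cells none of these lists held a called gene.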

How the data were processed

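RNA-seq counts per gene were deposited by the authors as a table for HEK293T cells and a table for NPCs. According to the study's methods and the submitters' processing notes, stranded mRNA libraries were aligned to hg19 with HISAT2 and uniquely mapped reads were counted with featureCounts. Tool versions and read length are not given in the sources used here. Near-identical variable exons can lose reads that map to more than 1 place.

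Samples were grouped by their labels. Genes with a total count of at least the number of libraries were kept, scaled by TMM and tested within each cell type with edgeR 4.0.16 (quasi-likelihood, not robust, R 4.3.3), with Benjamini-Hochberg adjustment over all genes tested. The KO effect was compared between cell types by an interaction term over all 10 libraries. The study used voom, which was run here as an alternative (limma 3.58.1), as were DESeq2 1.42.0, other size factors, other filters and thresholds, and fits that each lacked 1 library. The tests were checked on simulated counts, in which the changed genes had many counts and little spread. That check does not cover members with few counts or with KO libraries far apart. Counting intervals cover 95% and counting error only. P-values measure the spread between these libraries.

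The members, gene lists and tests were chosen with earlier results of these data known. Named genes are ZNF274, every member called in either cell type or in the interaction, the highest WT member of each cluster, the 5 largest and 5 smallest NPC changes at 1 CPM or more, members differing over 4-fold between libraries of an NPC genotype, C-type genes, and called genes of the lists. Other members are named with their values to account for each cluster, and were chosen after their values were seen. The lists held regulators of promoter choice, partners of PCDHs, neighbouring genes within 500 kb, and markers of neural progenitors, neurons, mesenchyme, neural crest and pluripotency.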

Additional observations from a re-analysis of the deposited data

Results flagged for a closer look

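The KO effect differed between cell types, by edgeR's interaction term, for 1 of the 50 alternate isoforms, PCDHB2, and for 2 C-type genes. Of all 19255 genes tested, 7.34% had a lower and 7.74% a higher effect in NPCs. For PCDHB2 the effect in NPCs minus that in HEK293T cells was -4.22 on the log2 scale (adjusted p = 0.000957), with every KO library above every WT library in both cell types. For PCDHGC4 it was -5.06 (adjusted p = 0.000232), with every KO library above WT in HEK293T cells and both below WT in NPCs. For PCDHGC3 it was -2.21 (adjusted p = 0.0232). The part of the marker shifts between WT and KO NPCs in these values was not tested.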

How the results depend on the processing

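Members that were called kept their direction under the alternatives run. PCDHA4, PCDHB5, PCDHGB6, PCDHGA10 and PCDHGA11 in NPCs, none of them called, changed sign under at least 1. Of 664 comparisons of a named member with an alternative, 604 stayed on the same side of the threshold, 43 lost the call, 16 gained it and 1 reversed. In HEK293T cells the 7 calls became 3 with voom (beta 2), 13 with DESeq2 (beta 11, gamma 1) and 12 with all 10 libraries in one fit (gamma 2). Leaving out a library gave 1 to 11 calls (beta 1 to 10, alpha 0 to 1). The HEK293T median log2 FC of 3.42 became 3.74 with filterByExpr, 2.95 with all 10 libraries and 1.94 at the bound, and 3.40 to 3.81 without a library. Members detected per HEK293T library came to a mean of 1.67 in WT at 10 scaled counts, and in KO to 16 at 0.5 CPM, 4.67 at 2 CPM and 17 at 10 scaled counts. The KO effective number was 22.2 per kb. In NPCs, leaving out a library gave 14 to 28 members higher (alpha 3 to 8, gamma 2 to 7) and 0 to 1 lower, and an adjusted p below 0.01 left 3 alpha calls. The NPC median log2 FC of 1.73 became 1.83 with voom, 1.62 with library size alone, 1.83 with filterByExpr, 1.82 without pseudogenes and 1.45 at the bound, and 1.62 to 2.14 without a library. With library size alone the NPC ratios were 2.29 for alpha, 2.20 for beta and 1.36 for gamma, and the median of all genes -0.130. The alpha ratio was 2.19 to 2.82 without a library. PCDHGA10 in NPCs had -2.22 without WT library 3 and 3.94 without WT library 5. Interaction calls were 2 with voom, 6 with DESeq2, 2 with DESeq2 size factors, 3 with library size alone, 2 with filterByExpr and 1 to 5 without a library. At 2-fold, 3 members differed between KO NPC libraries. The cause of these shifts was not tested. No paired analysis was made because the labels do not state whether WT and KO libraries are paired. Depth limits HEK293T results, where 35 members lay at or under 3 counts in every WT library.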
